A study of Mus musculus with 4 samples.

Results

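The genes described here are a set of 42 genes of mitosis, the program that a dividing cell switches on to separate its copied chromosomes. They were chosen by name, as genes whose products act from the entry into mitosis to the separation of the daughter cells, and were matched by gene symbol to the 19465 genes of the count tables. Of the 42 genes, 38 had a row, and Ccnb1, Kif2c, Cdc20 and Ndc80 were not analysed here. The study injected 100000 cells of 4T1, a line of mouse mammary carcinoma that spreads to the lung, into a mammary fat pad of BALB/c mice aged 8 weeks and took the primary tumor (PT) and the lung after 28 days. Of 2 mice, called A and B by the lower and the higher number in the labels, 1 section of the PT and 1 section of the lung of each animal were profiled, so that every group has n = 2 sections, and all 4 sections come from animals that carried the same line. No lung of an animal without tumor cells was analysed here. The assay, 10x Visium for formalin-fixed, paraffin-embedded tissue, ligates pairs of probes on the RNA of a section, captures them on a slide of barcoded spots and counts them as unique molecular identifiers (UMIs). One spot covers more than a single cell, so its counts mix cell types, and a lung section holds lung tissue beside any metastatic foci.

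Mitosis is driven by Cdk1, a kinase that works only when bound to a cyclin such as the products of Ccna2 and Ccnb2. The kinases of the Aurora, Polo and Bub families then organize the spindle, attach it to the kinetochores of the chromosomes and hold back their separation until all are attached, after which the anaphase-promoting complex marks cyclins for destruction and the cytokinesis proteins pinch the cell apart. The RNAs of most of these genes build up in G2 and M phase, while those of Chek1 and Mybl2 rise earlier with the S phase genes, and they are low in resting cells, which is why Mki67 and Top2a are widely used as marks of dividing cells in tumor tissue.

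Many promoters of such genes carry a cell cycle genes homology region (CHR), a short element bound by a repressor complex in resting cells and by an activating complex with Mybl2 and Foxm1 in dividing ones, often near CCAAT boxes. RefSeq windows (GRCm38.p6) of 300 bases, from 250 bases before to 50 bases after a gene's start, were matched by symbol to 32 of the 38 members. The letters TTTGAA or TTCGAA, searched on both strands as the CHR, stood in the window of 25 of the 32 members (78.1%) and of 5854 of all 27025 genes with a window (21.7%). The letters CCAAT, also searched on both strands, stood in 24 of the 32 members (75%) and in 11096 of all genes (41.1%), and both motifs stood in one window in 22 members (68.8%) and 2328 genes (8.61%). A match of letters is a description of the window and not a binding site. Birc5, Cenpe, Chek1, Mybl2, Nek2, Nuf2 and Nusap1 had no CHR letters in this window. The 150 bases before the start of 6 members are shown, because they hold the shared letters, and capitals mark the CHR and CCAAT letters on either strand. The stretches are those of Cdk1 at chr10:69352913-69353062 (minus strand), Top2a at chr11:99024190-99024339 (minus strand), Mki67 at chr7:135716380-135716529 (minus strand), Ube2c at chr2:164769779-164769928 (plus strand), Kif11 at chr19:37376232-37376381 (plus strand) and Kif15 at chr9:122950931-122951080 (plus strand), each read 5′ to 3′ on the strand of the gene.
Cdk1: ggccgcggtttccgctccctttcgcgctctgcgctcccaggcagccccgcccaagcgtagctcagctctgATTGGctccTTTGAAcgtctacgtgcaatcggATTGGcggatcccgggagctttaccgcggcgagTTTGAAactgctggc
Top2a: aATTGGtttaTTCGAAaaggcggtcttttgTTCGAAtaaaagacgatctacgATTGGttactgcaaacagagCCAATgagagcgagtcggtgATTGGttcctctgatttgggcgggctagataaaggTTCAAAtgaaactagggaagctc
Mki67: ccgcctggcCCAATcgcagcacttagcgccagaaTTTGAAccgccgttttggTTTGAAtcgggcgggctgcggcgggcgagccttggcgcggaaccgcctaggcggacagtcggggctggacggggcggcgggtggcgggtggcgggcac
Ube2c: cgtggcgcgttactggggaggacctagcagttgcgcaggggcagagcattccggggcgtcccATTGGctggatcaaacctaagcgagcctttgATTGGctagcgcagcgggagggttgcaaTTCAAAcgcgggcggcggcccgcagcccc
Kif11: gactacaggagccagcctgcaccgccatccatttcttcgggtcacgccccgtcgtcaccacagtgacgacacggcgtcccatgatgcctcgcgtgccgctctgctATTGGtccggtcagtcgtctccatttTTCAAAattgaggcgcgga
Kif15: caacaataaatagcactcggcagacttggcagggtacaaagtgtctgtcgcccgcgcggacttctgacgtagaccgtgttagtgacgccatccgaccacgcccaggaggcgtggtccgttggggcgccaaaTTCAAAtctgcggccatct
In these stretches Top2a, a topoisomerase that untangles the chromosomes, had 3 CHR and 4 CCAAT matches. Cdk1 had 2 of each. Kif15, a spindle motor, had 1 CHR match and none of CCAAT in the stretch shown.

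The kept spots, those with more than 200 detected genes, were 9339 of 9445, and the depth was 10890154 to 30240176 UMIs per section. Values are given as counts per 1000000 UMIs (CPM) of a section or of a class of its spots, and pairs of values are those of mouse A and mouse B, in this order. Each spot was scored by the summed CPM of 6 genes of 4T1 tumor tissue, none of them a member (among them Hmga2, Wnt7b, Csf3, Plau and Etv4). The 10% of spots with the highest score in a section are called tumor-gene-rich and those at or below its median tumor-gene-poor, and these names refer to the score alone. The 6 genes together had a CPM of 2112 and 2054 in the PT sections and of 117 and 913 in the lungs, so that the lung of mouse A held the fewest of their UMIs. Its poor class is the 1019 spots with a score of 0. The score at the limit of the rich class was 3547 and 2631 in the PT and 335 and 1620 in the lung, so that the rich class does not hold the same amount of tumor in each section. The PT section of mouse B stood apart from the others, since olfactory and vomeronasal receptor genes, which neither tissue should express, took 0.926% of its UMIs and 2.32% of those of its poor spots, against 0.0183% to 0.0868% in the other sections. All 38 members were above the 95th percentile of these receptor genes in the other 3 sections, and 31 were in that section, but only 15 in its poor spots and 10 in its spots with a score of 0. In the PT of mouse A, 33 were in the rich spots (all but Ttk, Bub1b, Cenpe, Kif4 and Kif20a) and 31 in the spots with a score of 0, where receptor genes took 0.639% of the UMIs. The rich spots of the PT of mouse A were shallow, with a median of 542 UMIs per spot against 5083 to 18074.5 in the other rich classes. These 249 spots held 401157 of the 13532158 UMIs of the section. At 542 UMIs a few UMIs of the 6 genes place a spot above the limit, so the class also depends on depth.

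The members together had a CPM of 2479.8 and 2259 in the PT sections and 917 and 3726 in the lungs. The lungs thus lay on either side of the PT sections, the lung of mouse A lowest and that of mouse B highest, and the groups overlapped. The lung stood at 0.370 times the PT of the same animal in mouse A and at 1.65 times in mouse B. All 38 members were lower in the lung than in the PT of mouse A, and 36 of 38 were higher in the lung than in the PT of mouse B. The neutrophil markers had a summed CPM of 2389 and 10359 in the PT sections and 70010 and 27679 in the lungs, and the alveolar type 2 markers of 2.88 and 23.6 and of 11004 and 6419, and the part of these cells was not tested. In a bulk sum over a section, fewer dividing cells and less of these RNAs per cell cannot be told apart.

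**Figure D1:**
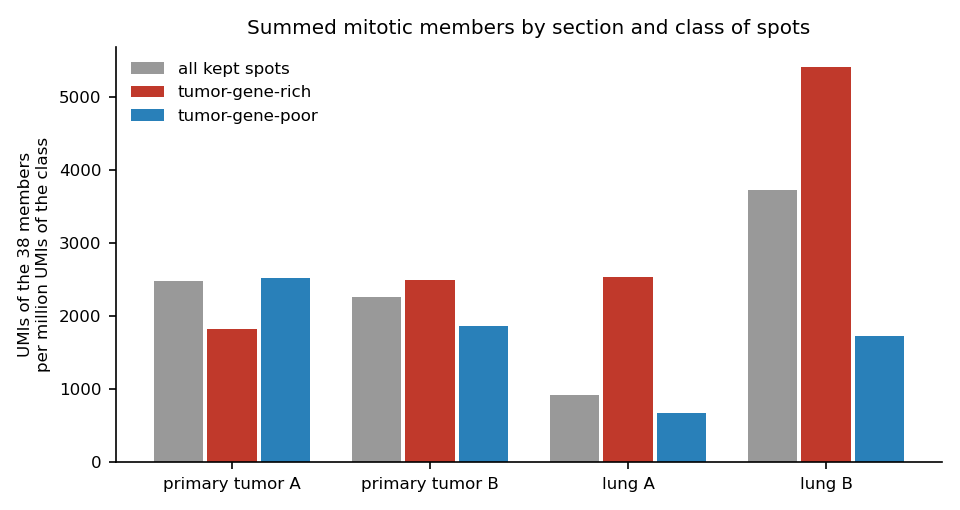
Summed UMIs of the 38 mitotic members (CPM) in all kept spots, tumor-gene-rich spots and tumor-gene-poor spots of each section (1 bar per section and class, no error bar since each is 1 sum). In both lungs the bar of the rich spots is the highest of the 3, at 2533 and 5417 against 670.5 and 1734 in poor spots, while in the PT sections the order of the rich and poor bars differs between the mice.

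Over whole sections, the quasi-likelihood test of edgeR, adjusted by the method of Benjamini and Hochberg, called 0 of the 38 members between lung and PT, where it called 7.46% of the 15267 genes tested. No member had an unadjusted p under 0.05, against 23.2% of all genes. DESeq2 called 0 members as well, where it called 19.2% of its 19314 genes. The log2 fold changes ran from -0.55 (SE 0.58) for Anln, the scaffold of the cleavage furrow, to 0.83 (SE 0.50) for Kif23, a motor of the central spindle. The members' median was 0.081 and that of all genes tested -0.0046. With library sizes without TMM factors the members' median was -0.16, with 25 of 38 members below 0. With the mouse as a block, edgeR called 0 members and 1817 genes in place of 1139, and the members' median was -0.18, with 26 below 0. Without the lung of mouse A, 3 members were called higher (Mybl2, Kif23 and Cdca3), where 4.03% of 19140 genes were, and without the lung of mouse B, 2 were called lower (Chek1 and Anln), where 2.55% of 19134 genes were.

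The members named by role lay lowest in the lung of mouse A and highest in that of mouse B, except for Ttk, Anln and Ube2c. The CPM of Cdk1 was 224 and 200 in the primary tumors and 56.5 and 345 in the lungs. That of Ccna2, the cyclin of S and G2 phase, was 169.6 and 127 in the primary tumors and 77.6 and 307 in the lungs. In both genes the lung of mouse B held far more than the lung of mouse A. Of the transcription factors, Mybl2 had a CPM of 51.8 and 37 in the primary tumors and 16.9 and 108 in the lungs, and Foxm1 of 30 and 28.4 in the primary tumors and 7.1 and 31.8 in the lungs. Of the kinases, Chek1, which stops the cycle when DNA is damaged, had a CPM of 56.8 and 71.3 in the primary tumors and 12.6 and 133 in the lungs. Ttk, a kinase of the spindle checkpoint, lay highest in the PT of mouse B, with 15.2 and 21.1 in the primary tumors and 5.12 and 19.9 in the lungs. In the chromosomal passenger complex, which corrects attachments of the spindle, Cdca8 had 75.8 and 69.3 in the primary tumors and 30.1 and 117 in the lungs and Birc5 96.1 and 97.3 in the primary tumors and 28.2 and 137 in the lungs. At the kinetochore, Nuf2 had 21 and 13.1 in the primary tumors and 7.82 and 29.9 in the lungs and Cenpf 60.3 and 52.3 in the primary tumors and 13.7 and 66.4 in the lungs. Each of these 4 genes held less in the lung of mouse A than in any other section. Of the spindle genes, Tpx2 had 25.5 and 31.7 in the primary tumors and 8.63 and 43.4 in the lungs and Kif15 37.5 and 33 in the primary tumors and 9.35 and 44.5 in the lungs. In cytokinesis, Kif23 had 42.5 and 27.8 in the primary tumors and 25.2 and 82.7 in the lungs and Anln 131 and 127 in the primary tumors and 23.8 and 129 in the lungs, so that Anln in the lung of mouse B lay between the PT sections. Ube2c, the ubiquitin-conjugating enzyme of the anaphase-promoting complex, had 14.1 and 17.5 in the primary tumors and 6.74 and 17.2 in the lungs, and its lung value in mouse B lay just under the PT of that animal. Cdca3, which helps to trigger entry into mitosis, had 63.2 and 44.4 in the primary tumors and 35.4 and 124 in the lungs. Mki67, which coats the mitotic chromosomes, had 186 and 149.8 in the primary tumors and 115 and 321 in the lungs, and Top2a 142 and 112 in the primary tumors and 41.5 and 187 in the lungs.

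Within the lungs the members went with the tumor genes. Summed over the members, the CPM was 2533 and 5417 in the rich and 670.5 and 1734 in the poor spots, or 3.78 times as high in mouse A and 3.12 times in the other animal. With spots thinned to 1500 UMIs and scored again, these ratios were 3.38 and 2.08. The lowest rich value lay above the highest poor value. All 38 members had a higher CPM in the rich than in the poor spots of both mice, which held for 46.9% of the 12866 genes tested. In 37 of 38 members both rich values lay above both poor values, against 35.5% of the genes tested, and only in Mybl2 did the classes overlap. The ratio of single members ran from 2.53 (Mki67) to 9.59 (Chek1) in mouse A and from 1.95 (Ube2c) to 4.49 (Chek1) in mouse B, with medians of 3.81 and 3.09.

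With the mouse as a block, edgeR's quasi-likelihood test called none of the 38 members and none of the 12866 genes at an adjusted p under 0.05 (0% of the genes), and it left 1 residual degree of freedom. All 38 members had an unadjusted p under 0.05, against 25.5% of all genes (3282 genes), and adjusted p-values of 0.145 to 0.196. DESeq2 called 26 of the 38 members, all higher, where it called 3.88% of its 11095 genes higher. Without the filter on low counts edgeR called 37 members higher, against 6.79% of 18715 genes. The members' median log2 fold change was 1.58, and that of all genes tested was -0.0016. With thinned spots the members' median was 0.92.

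**Figure D2:**
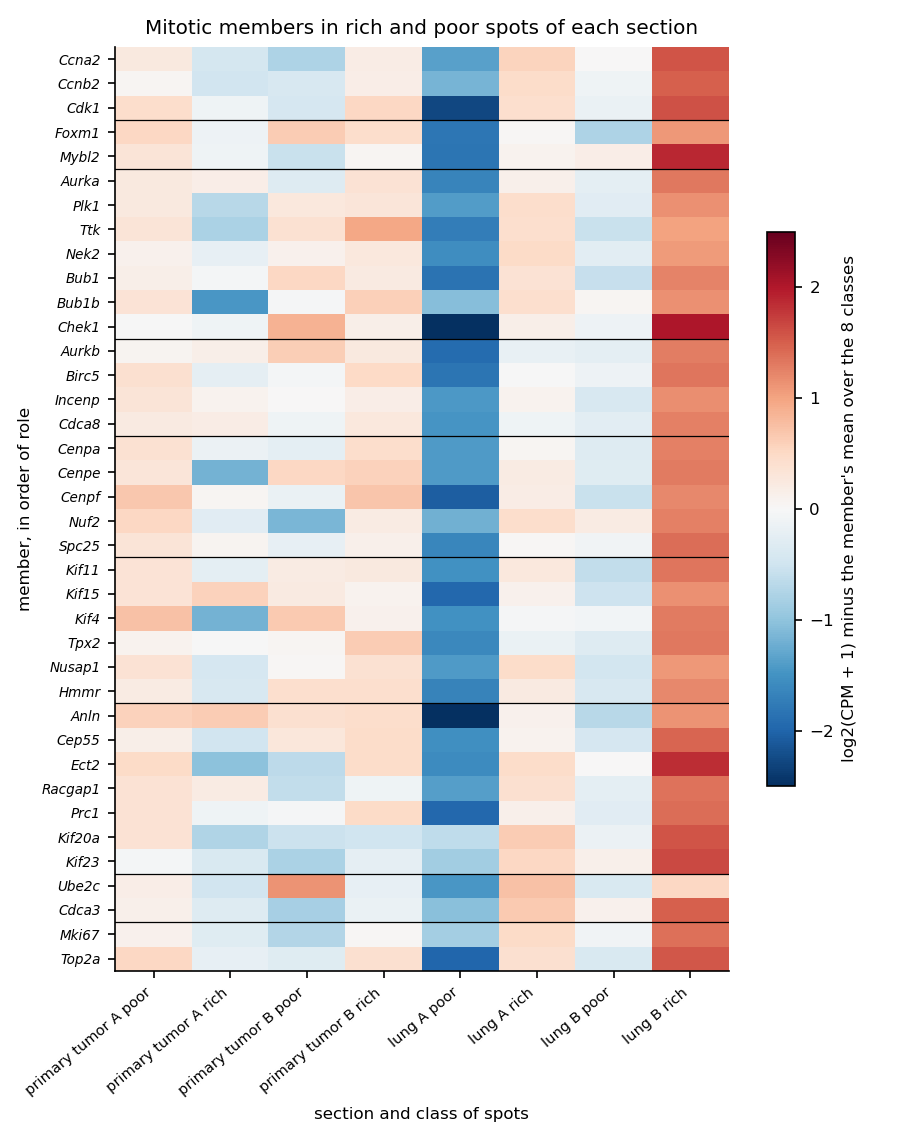
Each of the 38 members (lines, in the order of their roles, with black lines between the roles) in the poor and rich spots of each section (columns); the color is log2(CPM + 1) minus the member's mean over the 8 classes. The column of the poor spots of the lung of mouse A is the bluest and that of the rich spots of the lung of mouse B the reddest, and the 4 PT columns lie between.

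Among the cyclins and Cdk1, the CPM of Cdk1 in the lungs was 223 and 507 in rich and 33.7 and 148 in poor spots, and the rich values lay above both poor values. The log2 fold change of Cdk1 was 2.09 (SE 0.33). Ccnb2, the other mitotic cyclin in the table, had the smallest contrast of this role, with 91.6 and 189 in rich and 29.3 and 62.3 in poor spots and a log2 fold change of 1.47 (SE 0.18). Of the transcription factors that switch on the G2 and M genes, Foxm1 had a CPM of 22.4 and 47.2 in rich and 5.54 and 12.4 in poor spots (log2 fold change 1.81, SE 0.28). Mybl2 had 45.8 and 161 in rich and 11.4 and 48.5 in poor spots (1.70, SE 0.20), so that its poor value in mouse B exceeded its rich value in mouse A. Of the 7 kinases, Chek1 had the largest contrast of all members, at 59.4 and 222 in rich and 6.19 and 49.4 in poor spots (2.49, SE 0.35). Bub1b, which holds back the anaphase-promoting complex until the chromosomes are attached, had the smallest, at 30.2 and 50.6 in rich and 10.1 and 23.2 in poor spots (1.17, SE 0.26). The other kinases (Aurka, Plk1, Ttk, Nek2 and Bub1) lay between these, and the median log2 fold change of the role was 1.74.

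In the chromosomal passenger complex, Aurkb, its kinase, had a CPM of 11.7 and 33.6 in rich and 2.77 and 11.1 in poor spots (1.64, SE 0.37). Cdca8, a subunit that places the complex at the centromere, had 63.3 and 164 in rich and 23.8 and 56.8 in poor spots (1.33, SE 0.19). Both were higher in the rich spots of both animals with no overlap, as were the other subunits Birc5 and Incenp. At the centromere and kinetochore, Cenpf had 46.8 and 95.9 in rich and 9.13 and 27.5 in poor spots (1.90, SE 0.25). Nuf2, which binds the spindle fibers as part of the same complex as Ndc80, had 21.4 and 38.5 in rich and 6.19 and 17.9 in poor spots (1.25, SE 0.33). In Nuf2 the gap between the classes was narrow, with the poor spots of mouse B just under the rich spots of mouse A. Of the spindle motors and assembly factors, Kif15 had 32.1 and 67 in rich and 6.84 and 20.4 in poor spots (1.79, SE 0.26), and Tpx2, which activates Aurka on the spindle, 22.4 and 64.2 in rich and 7.5 and 19.9 in poor spots (1.49, SE 0.24). The 6 members of this role had log2 fold changes of 1.49 to 1.79.

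In cytokinesis, Anln had a CPM of 95.5 and 194 in rich and 13.7 and 54.3 in poor spots (2.14, SE 0.32), the second largest contrast of the members. Kif23 had 56.5 and 126 in rich and 21 and 43.1 in poor spots (1.34, SE 0.19). The role, which also holds Cep55, Ect2, Racgap1, Prc1 and Kif20a, had a median of 1.69. Ube2c had 24.4 and 20.9 in rich and 4.56 and 10.8 in poor spots (1.47, SE 0.51), with the largest SE of the members named, since its contrast was much larger in mouse A than in mouse B. Cdca3 had 94.5 and 171 in rich and 28.4 and 64.1 in poor spots (1.42, SE 0.20). Of the chromosome markers, Mki67 had 244 and 455 in rich and 96.3 and 164 in poor spots (1.25, SE 0.21). Top2a had 133 and 300 in rich and 24.8 and 77.9 in poor spots (2.03, SE 0.23). The poor spots of the lung of mouse A still held Mki67 at a higher CPM, relative to its rich spots, than they held any other member, and Mki67 took 12.5% of all member UMIs in that lung, against 6.63% to 8.61% in the other sections. Members with and without the CHR letters in their window had median log2 fold changes of 1.65 and 1.58, and their ranges overlapped.

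Lists of other cell cycle genes were compared in the same spots. Of 36 further mitotic genes in the table, 35 were tested and all 35 had a log2 fold change above 0, with a median of 1.56, from 0.48 (Cdc25b, a phosphatase that activates Cdk1) to 2.32 (Sgo2a, a guardian of centromere cohesion). Of the S phase genes, which copy the DNA, 22 were tested and all 22 were above 0, with a median of 1.5, from 0.83 (Slbp) to 2.05 (Tk1). Of 9 genes tied to leaving the cycle, 7 were below 0, with a median of -0.99, and Cdkn1c, an inhibitor of Cdk complexes, was the lowest at -1.78. None of these genes passed the adjusted threshold in edgeR. Summed over the list, the S phase genes had a CPM of 1179 and 2692 in rich and 388 and 868 in poor spots of the lungs. The ratio of the members' sum to that of the S phase genes, compared between classes and not between genes, was 2.15 and 2.01 in rich spots and 1.73 and 2.0 in poor spots.

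Markers of other cell types differed between the classes of the lung. The 5 neutrophil markers, led by S100a8 and S100a9, had a summed CPM of 43627 and 3536 in rich and 74971 and 52819 in poor spots. The 4 markers of alveolar type 2 cells, which make surfactant, had 8457 and 1423 in rich and 11113 and 10203 in poor spots. The 4 fibroblast markers had 1009 and 1586 in rich and 514 and 1182 in poor spots, and the 4 macrophage markers 598 and 904 and 309 and 487. The 4 markers of myeloid precursors, which divide, had 176 and 18 in rich and 237 and 146 in poor spots. The 3 airway markers had 449 and 19.6 in rich and 227 and 514 in poor spots. Neutrophil and alveolar type 2 markers were thus lower, and fibroblast and macrophage markers higher, in the rich spots of both animals, while the airway markers were higher in those of mouse A and lower in those of mouse B. All markers of these lists were detected in both classes. The part of these cell types in the level of the members was not tested.

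The relation to the tumor genes was graded in the lungs. In spots of the lung of mouse A the members' CPM was 670.5 at a score of 0, 842 above 0 and up to 250, 1341 up to 500, 2897 up to 1000 and 3829 up to 2000. In the lung of mouse B the same steps gave 1193, 1446, 2222, 3807 and 5356, and 5404 above 2000. Each step up to 2000 was higher than the one before in both lungs, and the last step of mouse B added little. The PT sections varied less over the same scores, with 2171, 2535 and 2458 in mouse A and 1857, 2158 and 2454 in mouse B from above 500 upwards, and mouse B had 1960 from 250 to 500. At a score of 0 the PT spots still held 2219 and 1886, above the lungs' values at that score, in spots with a median of only 400.5 and 1366 UMIs. In the PT of mouse B these spots had 3.28% of their UMIs on receptor genes, whose median was 24.4 CPM per gene, and only 10 of the 38 members exceeded the 95th percentile of these genes there, so that the value of 1886 includes members at background level. Between 1000 and 2000 the lungs stood above both PT sections, although the smallest step, that of mouse A, held only 25 spots.

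**Figure D3:**
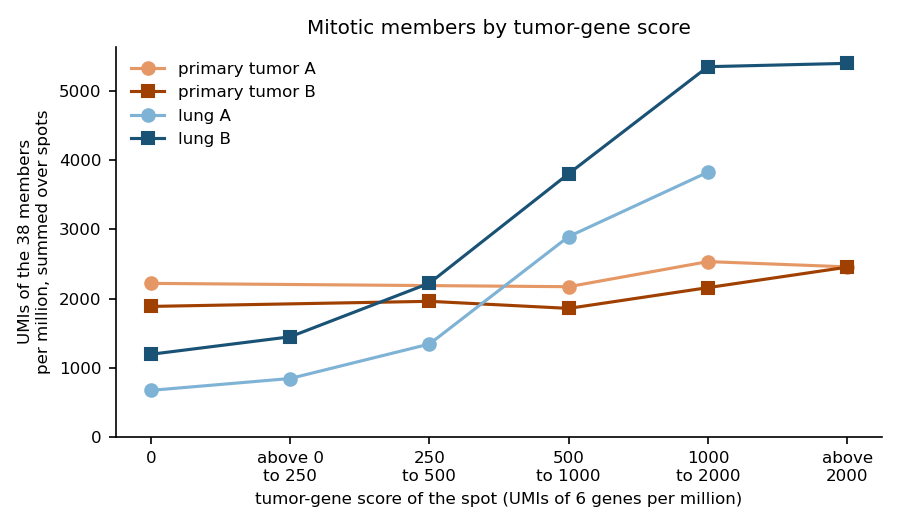
CPM of the 38 members, summed over the spots of each section whose tumor-gene score lies in a step (horizontal axis, CPM of the 6 tumor genes); steps with fewer than 20 spots are not drawn. The lines of the lungs climb from 670.5 and 1193 to 3829 and 5356, and the lines of the PT sections stay between 1857 and 2535.

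On the slide the members lay in patches. Across spots, the members' CPM had a Spearman correlation with that of the neighbouring spots of 0.37 (2484 spots) and 0.32 (2368 spots) in the PT and of 0.47 (1695 spots) and 0.90 (2779 spots) in the lung. The correlation with the tumor score was 0.02 and 0.12 in the PT and 0.28 and 0.77 in the lung. The correlation with depth was 0.18 and 0.13 in the PT and -0.00015 and 0.55 in the lung, so that in the lung of mouse B the spots rich in members were also the deeper ones. These spots share their section and its library, and the values are descriptions. With each spot thinned to 1500 UMIs, which leaves out 6 rich spots in each lung and 31 and 28 poor spots, 26.2% and 85.3% of rich lung spots held at least 5 member UMIs, against 0.911% and 12.6% of poor ones. In the PT, where thinning left 49 (A) and 201 (B) rich spots, the share was 18.4% and 28.4% in rich and 28.6% and 17.4% in poor spots. Before thinning, 94.1% and 100% of rich lung spots and 94.3% and 99.1% of poor ones held at least 1 member UMI, so that presence alone did not separate the classes. After thinning, Cdk1 was found in 22.6% and 50.7% of rich and 5.57% and 17.6% of poor lung spots, and Mki67 in 29.9% and 46.3% of rich and 14.7% and 19.5% of poor ones.

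**Figure D4:**
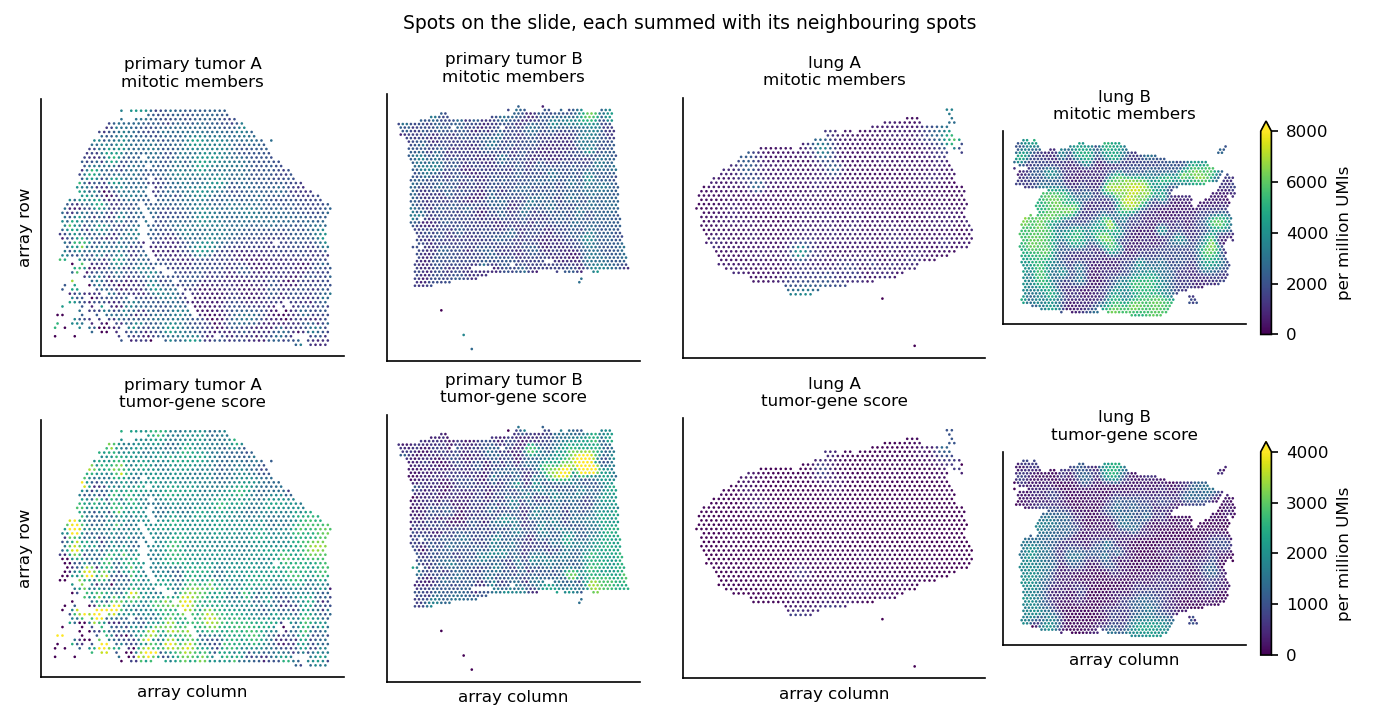
Spots of each section at their place on the array (array column and row), colored by the CPM of the 38 members (top) and by the tumor-gene score (bottom), each summed over the spot and its neighbors; colors stop at 8000 and 4000. In the lung of mouse B the bright patches of both maps lie in the same places, the lung of mouse A is dark but for a few small patches, and the PT maps of the members span a narrower range of colors than that of the lung of mouse B while the PT score maps have bright areas.

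In the PT the summed members were lower in the rich spots of one animal and higher in those of the other, and the direction in mouse A turned with the setting. Their summed CPM was 1827 and 2499 in rich and 2525 and 1869 in poor spots, which is 0.724 times in mouse A but 1.34 times in mouse B, and the classes overlapped. The ratio of mouse A was 1.06 for the top against the bottom 25%, 1.10 with 1 limit of the score for all sections, 0.980 with spots thinned to 1500 UMIs and 0.818 with spots of at least 1000 UMIs, while that of mouse B stayed between 1.14 and 1.36 over all alternatives of the score, the classes and the depth. From CPM, 35 of 38 members were lower in the rich spots of mouse A (median log2 ratio -0.55) and 30 of 38 higher in those of mouse B (0.45). With the TMM factors of the tests, 37 of 38 were above 0 in mouse B alone, with a median of 1.16. Foxm1, Kif4 and Ube2c, 3 members, had both rich values under both poor values, where 14.6% of the 12776 genes tested did, and no member had them above, where 10.1% did. The poor values of these 3 members in mouse B did not exceed the 95th percentile of the receptor genes in those spots (48.9 CPM), and with TMM factors in mouse B alone only Ube2c was below 0. edgeR's quasi-likelihood test with the mouse as a block called 0 of the 38 members and 0.994% of the genes tested. DESeq2 called 0 members and 0.00521% of its 19211 genes. Ube2c alone had an unadjusted p under 0.05, against 5.05% of all genes. The log2 fold changes ran from -1.13 (SE 1.37) for Kif4, a motor that shapes the chromosomes, to 0.52 (SE 0.59) for Nuf2, with a median of 0.082 against -0.048 over all genes. With 1 limit of the score for all sections, the median was 0.80, with 35 of 38 members above 0. The receptor genes took 0.219% and 0.303% of the UMIs of the rich spots and 0.0991% and 2.32% of those of the poor spots, and the neutrophil markers stood at 2979 and 6015 CPM in rich and 2578 and 17321 in poor spots, the fibroblast markers at 481 and 318 and 682 and 225 and the macrophage markers at 608 and 344 and 1393 and 263. The part of this background and of these cell types was not tested.

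Most members went opposite ways in the rich spots of the animals. A lower CPM there in both was found for 6 (Bub1, Chek1, Foxm1, Hmmr, Kif4 and Ube2c), where 25.8% of the genes tested did so, and Anln was slightly higher in both (log2 ratios of 0.048 and 0.042). Of the 6, all but Chek1 had a poor value in mouse B that did not exceed the 95th percentile of the receptor genes (48.9 CPM). With TMM factors in mouse B alone, only Ube2c was below 0. The CPM of Cdk1 in the PT was 155 and 240.0 in rich and 227 and 125 in poor spots, and that of Ccnb2 47.4 and 75.2 in rich and 69.1 and 50.1 in poor spots. Mki67 had 142 and 178 in rich and 187 and 104 in poor spots, and Top2a 87.2 and 134 in rich and 145 and 81.9 in poor spots. All 4 were lower in the rich spots of mouse A and higher in those of mouse B. Mybl2 had 39.9 and 44.5 in rich and 53.6 and 28.7 in poor spots and Foxm1 19.9 and 30 in rich and 31.6 and 34.7 in poor spots, so that Foxm1 was lower in the rich spots of both. Among the kinases, Aurka, which matures the spindle poles, had 9.97 and 11.6 in rich and 10.6 and 6.86 in poor spots and Chek1 49.9 and 60 in rich and 53.3 and 98.6 in poor spots. Cdca8 had 77.3 and 82.4 in rich and 80.2 and 63 in poor spots and Aurkb 15 and 15.9 in rich and 14.1 and 21 in poor spots. In each of these passenger genes the contrasts of the mice from CPM had opposite signs. The poor value of Aurkb in mouse B did not exceed the 95th percentile of the receptor genes, and with TMM factors in mouse B alone its contrast was above 0. Nuf2 had 12.5 and 18.1 in rich and 22.6 and 6.43 in poor spots and Cenpe, a motor that moves chromosomes to the middle of the spindle, 4.99 and 19.2 in rich and 15.6 and 18.4 in poor spots. Tpx2 had 24.9 and 39.8 in rich and 26.6 and 26.1 in poor spots and Kif4 2.49 and 7.59 in rich and 12.1 and 11.6 in poor spots. The rich value of Kif4 in mouse A rests on 1 UMI of the 401157 of that class, and its ratio to the poor spots was 0.205 (95% Clopper-Pearson interval 0.0051 to 1.18, counting error only). Kif23 had 29.9 and 33.3 in rich and 38 and 22.3 in poor spots and Kif20a, a motor of the cleavage plane, 4.99 and 6.14 in rich and 12 and 6 in poor spots. Cdca3 had 47.4 and 53.1 in rich and 65.6 and 33 in poor spots, and Ube2c 9.97 and 12.3 in rich and 16.1 and 32.1 in poor spots, lower in the rich spots of both mice.

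**Figure D5:**
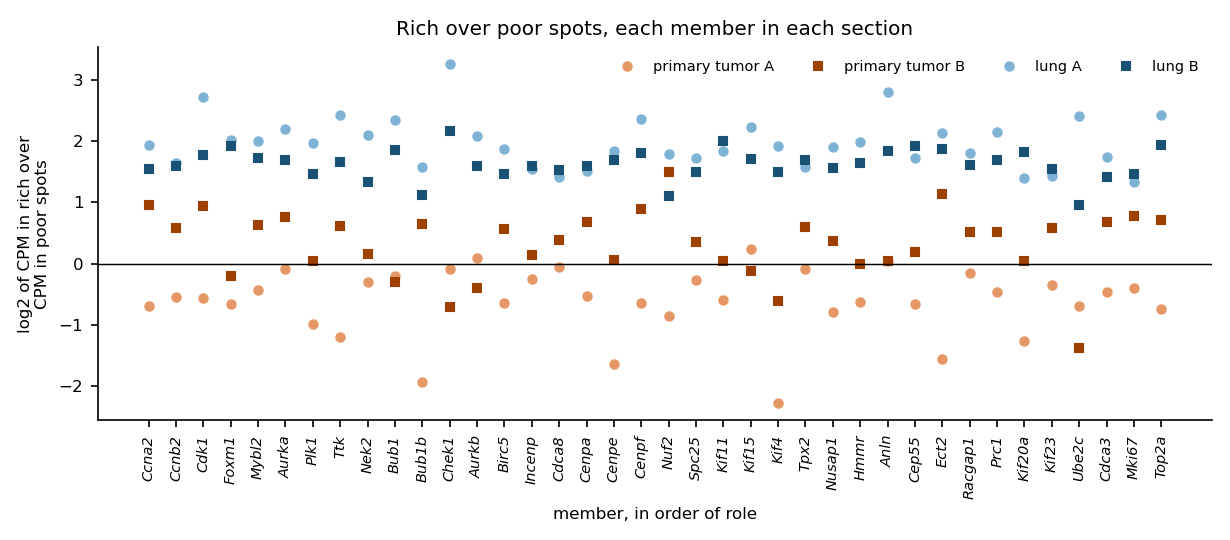
Log2 of the CPM in rich over that in poor spots for each of the 38 members (horizontal axis, in the order of their roles) in each section (1 point per section). All points of both lungs lie above 0, from 0.96 to 3.26, while the points of the PT sections lie on both sides of 0, from -2.29 to 1.49.

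The richest spots of the lung were then set against the richest spots of the PT. The members' summed CPM was 2533 and 5417 in rich lung spots and 1827 and 2499 in rich PT spots, 1.39 times as high in mouse A and 2.17 times in mouse B. The neutrophil markers stood at 43627 and 3536 CPM in the rich lung spots and 2979 and 6015 in the rich PT spots, the alveolar type 2 markers at 8457 and 1423 against 7.48 and 8.31, the fibroblast markers at 1009 and 1586 against 481 and 318 and the macrophage markers at 598 and 904 against 608 and 344, and their part was not tested. Both summed values of the members in the lung lay above both in the PT, that of mouse A by a small margin. This order depended on the score, since the lung of mouse A lay under both PT sections with the top 25% as rich (1626 against 2349 and 2443) and under the PT of mouse B with Hmga2 and Wnt7b alone (2198 against 2276) or without Csf3 (2524 against 2620). The tumor score of these lung spots was lower than that of the PT spots, at 639 and 2001 against 4280.1 and 3502. In mouse A, 31 of 38 members were higher in the lung and in mouse B all 38. In 16 members both lung values lay above both PT values, where 23.7% of the 10839 genes tested did, and in 22 they overlapped. edgeR's quasi-likelihood test called 0 of the 38 members and 0.0185% of the genes tested, with 7 members at an unadjusted p under 0.05 against 12.8% of all genes. DESeq2 called 0 members and 2.33% of its 12480 genes. All 38 log2 fold changes were above 0, from 0.17 (SE 0.35) for Anln to 1.89 (SE 0.57) for Kif20a, and their median was 0.75, against 0.058 over all genes. The rich PT values of Kif20a rest on 2 and 17 UMIs and did not exceed the 95th percentile of the receptor genes in those spots. Without the lung of mouse A, 30 members were called higher, where 10.5% of 12065 genes were called higher, and without the lung of mouse B, 2 were (Kif23 and Cdca3), where 20.5% of 10974 genes were called higher. Without the lung of mouse B the direction was also split, with 20 of 37 members above 0, 17 below 0 and a median of 0.11. The fit with the mouse as a block called 0 members and 2.16% of all genes.

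Among the members named by role, rich spots held a Cdk1 CPM of 223 and 507 in the lungs and 155 and 240.0 in the primary tumors, and a Ccna2 CPM of 209 and 423 in the lungs and 105 and 161 in the primary tumors. In Ccna2 both lung values lay above both PT values, while in Cdk1 the lung of mouse A lay between them. Mki67 had 244 and 455 in the lungs and 142 and 178 in the primary tumors, with no overlap, and Top2a 133 and 300 in the lungs and 87.2 and 134 in the primary tumors, with overlap. Mybl2 had 45.8 and 161 in the lungs and 39.9 and 44.5 in the primary tumors and Foxm1 22.4 and 47.2 in the lungs and 19.9 and 30 in the primary tumors. Chek1 had 59.4 and 222 in the lungs and 49.9 and 60 in the primary tumors and Ttk 18.5 and 28.3 in the lungs and 7.48 and 27.5 in the primary tumors. In each of these kinases the lung of mouse A lay within or near the range of the PT. Incenp, the scaffold of the passenger complex, had 97.4 and 208 in the lungs and 97.2 and 103 in the primary tumors and Cdca8 63.3 and 164 in the lungs and 77.3 and 82.4 in the primary tumors. Nuf2 had 21.4 and 38.5 in the lungs and 12.5 and 18.1 in the primary tumors and Cenpf 46.8 and 95.9 in the lungs and 42.4 and 67.2 in the primary tumors. Kif4 had 6.82 and 18.6 in the lungs and 2.49 and 7.59 in the primary tumors and Tpx2 22.4 and 64.2 in the lungs and 24.9 and 39.8 in the primary tumors. In Incenp, Cdca8, Cenpf, Kif4 and Tpx2 the groups overlapped, and in Nuf2 they did not. Kif20a had 14.6 and 28.9 in the lungs and 4.99 and 6.14 in the primary tumors and Anln 95.5 and 194 in the lungs and 137 and 120.0 in the primary tumors. Cdca3 had 94.5 and 171 in the lungs and 47.4 and 53.1 in the primary tumors and Ube2c 24.4 and 20.9 in the lungs and 9.97 and 12.3 in the primary tumors, both with the lungs above the PT in both animals.

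Last, the contrast of rich and poor spots in the lung was set against the same contrast in the PT. From CPM, the log2 ratio of rich over poor was larger in the lung than in the PT of the same animal for all 38 members in mouse A (median difference 2.58) and for 37 of 38 in mouse B (median difference 1.16), with Nuf2 the exception at -0.38. It was larger in both mice for 41.4% of the 15170 genes tested. edgeR's interaction test with the section as a block called 5 of the 38 members higher, where 0.692% of all genes were called higher. DESeq2 gave an adjusted p for only 2 of the 38 members and for none of these 5, so that it neither keeps nor loses their calls. Of the 36 other mitotic genes 5 were called, with a median of 1.57, and of the 23 S phase genes 3, also with a median of 1.57. The 5 were Chek1 (2.87, SE 0.54, adjusted p = 0.000212), Foxm1 (2.11, SE 0.57, 0.0321), Bub1 (2.11, SE 0.52, 0.0134), Anln (2.05, SE 0.55, 0.0327) and Kif11 (1.93, SE 0.51, 0.0284), given as the log2 difference of the contrasts. Bub1 and Kif11 are named because they passed. Kif11 is the motor that pushes the spindle poles apart, and Bub1 is a kinase of the kinetochore. The difference was 1.94 (SE 0.57) for Top2a, 1.82 (SE 0.64) for Cdk1, 1.00 (SE 0.62) for Mki67 and 0.71 (SE 0.66) for Nuf2, the smallest, none of which passed. The members' median was 1.64, and that of all genes tested was 0.23, or 0.49 when library sizes were used without TMM factors. Without these factors only Chek1 of the members was called, where 0.0989% of all genes were called higher. The size in mouse B depends on the scaling, since the median of the members there was 0.0084 with TMM factors in place of the 1.16 from CPM, with 20 members above 0 and 18 below. Leaving out a single section leaves 1 section in its tissue, so only sizes are given for these fits. The members' median was 2.33 without the PT of mouse B, 1.10 without the lung of mouse A and 1.29 without the lung of mouse B. The median of the members depended on the sections and classes, at 0.16 with 15 of 38 members below 0 without the PT of mouse A, 0.70 with spots thinned to 1500 UMIs and scored again, 0.84 for the top against the bottom 25%, 0.87 with 1 limit of the score for all sections and 1.03 without Csf3.

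The genes most like the members, by the mean over the 4 sections of the Pearson correlation across spots between log2 CPM and the members' summed CPM among 8486 genes, were Hist1h3c (mean r 0.35), Hist1h2bb (0.34), Lgals1 (0.34), Ccnd1 (0.34) and Lmna (0.34). Of these, Hist1h3c and Hist1h2bb encode histones, and Ccnd1 is the cyclin of G1 phase. The likeness was highest in the lung of mouse B, where r was 0.70 for Hist1h3c, 0.69 for Hist1h2bb, 0.76 for Lgals1, 0.67 for Ccnd1 and 0.69 for Lmna. In the lung of mouse A the same genes had 0.31, 0.29, 0.43, 0.38 and 0.31 in this order. In the PT of mouse A r was 0.15 to 0.24, and in the PT of mouse B it was at most 0.17.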

How the data were processed

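Sections of the PT and the lung of 2 BALB/c mice bearing 4T1 tumors were profiled by Visium. The deposited files hold unnormalized UMI counts, which the authors made with Space Ranger 2.0.0 per the file headers on mm10 per the submitters' processing notes, and the position of each spot. The probes read fixed parts of each RNA, so single members were not ranked by level; sums and shares were compared between classes, and receptor genes served as a background. Sections of one slide type share spot barcodes by design, so barcodes do not mark shared cells.

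Spots with more than 200 genes were kept (106 spots of the PT of mouse A were removed), scored by 6 tumor genes (1 of them is not reported here) and classed as described, and UMIs were summed per section and class. The sums were tested over all genes in R 4.3.3 with edgeR 4.0.16 (TMM factors, its filter filterByExpr, quasi-likelihood test), with p-values adjusted by Benjamini and Hochberg's method and called under 0.05, with the mouse as a block within a tissue, the section as a block in the interaction, and no block between tissues. SEs were derived from the fold change and the F statistic. DESeq2 1.42.0 was an alternative. The fits were run on simulated counts with the same spread for all genes and no difference between animals. That run checks the code and not the error rate in these data. Both tissues of a number come from 1 animal, so the number pairs them, with correlations of their deviations from the group means of -0.29 over whole sections and 0.03 over rich spots. With 2 against 2 sections the smallest 2-sided permutation p is 0.333, so none was computed, and spots were never used as replicates. Each p-value rests on a spread between these 2 animals that is estimated by borrowing across genes. Within the PT (1 residual degree of freedom) and in the interaction (2), edgeR's main p-values equal those of a normal distribution. They thus rest on a spread pooled over genes and do not measure each gene's own spread between the animals. No p-value or call is given where a single section was left out.

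The genes named are Mki67, Top2a and Cdk1 and, of each role, the members with the largest and smallest log2 fold change, besides those named with a count. Members, roles, score genes and lists were chosen with earlier results of these data known. The alternatives were another tool, filter, score, class limit or depth, and leaving out animals. Leaving out single sections and using library sizes without TMM were added after seeing the data.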

Additional observations from a re-analysis of the deposited data

Results flagged for a closer look

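The contrast of tumor-gene-rich against poor spots differed between lung and PT in 5 members by edgeR's interaction test (Benjamini-Hochberg adjusted p, n = 2 mice). Its p-values rest on a spread pooled over genes and not on each gene's own spread between the mice. The log2 difference was 2.87 for Chek1, 2.11 for Foxm1, 2.11 for Bub1, 2.05 for Anln and 1.93 for Kif11. Over the alternatives it ran from 1.72 to 3.20 for Chek1, 0.28 to 2.66 for Foxm1, 0.67 to 2.44 for Bub1, 0.64 to 2.66 for Anln and 0.67 to 2.55 for Kif11, and in mouse B alone with TMM factors it was 1.72, 0.96, 0.98, 0.64 and 0.80 in this order. From CPM, each was larger in the lung than in the PT in both mice: 3.36 and 2.88 for Chek1, 2.68 and 2.13 for Foxm1, 2.55 and 2.15 for Bub1, 2.75 and 1.80 for Anln and 2.43 and 1.96 for Kif11 in mouse A and mouse B. Among the alternatives that kept all sections, edgeR called Chek1 without the filter on low counts, with spots of at least 1000 UMIs and after thinning. It also called Chek1 with Hmga2 and Wnt7b alone, the score pooled over neighboring spots, 1 limit for all sections and library sizes without TMM. Bub1 was called without the filter and with Hmga2 and Wnt7b alone, Kif11 with Hmga2 and Wnt7b alone and Foxm1 with 1 limit. Anln was called in none. Without Csf3, and for the top against the bottom 25%, none of the 5 was called, with edgeR adjusted p-values of 0.826 and 0.410 for Chek1. DESeq2 gave none of the 5 an adjusted p. The rich PT spots of mouse A had a median of 542 UMIs. With spots of at least 1000 UMIs, or thinned to 1500, Chek1 alone of the members was called, where 0.324% and 0.177% of all genes were called higher. The poor PT spots of mouse B had 2.32% of their UMIs on receptor genes, with 15 of the 38 members above the 95th percentile of these genes, and the part of this background in the difference was not tested.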

How the results depend on the processing

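All 38 members kept a log2 fold change above 0 between rich and poor lung spots under every alternative run, while the number called moved from 0 to 26 with DESeq2, 37 without the filter on low counts, 35 with 1 limit of the score for all sections (which leaves mouse A's lung with 4 rich spots and calls 25.4% of all genes higher) and 7 with spots thinned to 1500 UMIs and scored again (34 rich spots in that lung, 2.76% of all genes). Their median of 1.58 was 1.27 with Hmga2 and Wnt7b alone as the score and 0.92 after thinning. With 1 limit for all sections, 7 members were called higher in rich PT spots (4.73% of all genes) and 13 in rich lung against rich PT spots (3.83%). The median of the latter comparison, 0.75, was 0.45 for the top against the bottom 25%. In it Anln reversed, to -0.14 with Hmga2 and Wnt7b alone, -0.0023 without Csf3 and -0.093 for the top and bottom 25%. In the PT, Kif4 was at 0.00074 with the score pooled over neighboring spots. In the interaction, 5 members were called, and 0 without Csf3, 0 for the top and bottom 25%, 2 without the filter (both of the 5), 3 with 1 limit for all sections (2 of the 5), 4 with Hmga2 and Wnt7b alone (3 of the 5) and 1 of the 5 each for spots with at least 1000 UMIs, the pooled score, thinning and library sizes without TMM. The share of all genes called higher was 0.692% in the main fit, 0% without Csf3, 0.0124% for the top and bottom 25% and 0.249% without the filter. It was 4.82% with 1 limit for all sections, 0.446% with Hmga2 and Wnt7b alone and 0.324% for spots with at least 1000 UMIs. The pooled score gave 0.425%, thinning 0.177% and library sizes without TMM 0.0989%. DESeq2 gave none of the 5 an adjusted p and so no call, while its log2 differences were above 0 in all 38 members, with a median of 1.59. In the interaction Nuf2 stood at -0.31 with 1 limit for all sections. The cause of these shifts was not tested.

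Leaving out an animal leaves 1 sum per class and no test within a tissue. Leaving out animals or single sections gave 0 to 3 members called for lung against PT, 0 to 30 for rich lung against rich PT spots (median 0.11 to 1.26) and 0 to 1 for the interaction. Over the same omissions, log2 values ran from -2.22 to 0.46 for Anln and -0.51 to 2.0 for Kif23 (lung against PT), -2.04 to 0.11 for Kif4 and -0.84 to 2.06 for Nuf2 (PT), -0.37 to 0.55 for Anln (rich spots), and, in the interaction, -0.33 to 3.22 for Cdk1, -0.58 to 1.83 for Mki67 and -1.44 to 2.48 for Nuf2. With the mouse as a block, 0 members were called for lung against PT (median -0.18) and 0 for rich lung against rich PT spots (0.83). Without the block, 0 were called within the lung (1.54) and 0 within the PT (0.046). The block changed no call of a member in these 4 comparisons, and the interaction was run only with the section as a block. With 2 animals and 1 section each, none of these comparisons separates the animal from its section.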
